A study of Homo sapiens with 8 samples.

Results

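The cells with lowered TOX were compared with cells that carry a scramble hairpin, in 2 established human leukaemia lines, CCRF-CEM and HPB-ALL, both of T cell acute lymphoblastic leukaemia, T-ALL. The arrays were chosen by their titles: 6 of the 8 arrays of the series entered, 4 with a short hairpin RNA (shRNA) against TOX and 2 with scramble shRNA, and the 2 arrays of untransduced cells were left out. Each line gave 1 array with scramble, 1 with the hairpin shTOX-1 and 1 with the hairpin shTOX-2. The numbers name different hairpins, so the spread within a line's shTOX arrays includes whatever the hairpins do differently. All 6 arrays share the handling of transduced cells: spinoculation with the vector, puromycin selection for its integration and a wait of at least 2 weeks before total RNA was taken. Nothing in the sources used here says whether a construct was transduced more than once, whether the cells are clones, or whether separate cultures stand behind the arrays, so the p-values measure only how far these 6 arrays spread.

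TOX is a nuclear HMG-box protein that binds DNA and is required for T cell development in the thymus, and it is also known for its part in T cell exhaustion. T-ALL cells are malignant relatives of thymocytes and keep many thymocyte genes, such as those of the T cell receptor (TCR), the CD1 lipid-presenting molecules and the NOTCH pathway. An shRNA is processed in the cell into a small RNA that lowers the transcripts it pairs with, and 2 hairpins against the same gene differ in sequence, hence in the other transcripts they may pair with.

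The values are log2 intensities of Affymetrix probe sets, with medians per array between 4.62 and 4.71. Of 14884 named genes, 8930 had a mean at or above the filter level of 5.2 and were tested; the number of arrays limits the precision. Across these genes, r lay between 0.979 and 0.985 for arrays within a line and between 0.897 and 0.908 across lines. Of 7 measured T cell markers, 6 (CD247, CD5, CD7, LCK, PTCRA and BCL11B) stood above the filter level on all 6 arrays, and CD2 did so in CCRF-CEM alone. Of the markers of other cells, CD14, CSF1R, CSF3R, EBF1, CD22, GNLY, DCN, LUM and EPCAM lay below it on all arrays. CD68, NKG7, KRT8, KRT18, KLF1, PF4 and the B cell markers VPREB1 and IGLL1 lay above it on all arrays. The rest lay above it on some arrays. IGLL1 in HPB-ALL was at 9.07 with scramble, 7.42 with shTOX-1 and 7.45 with shTOX-2.

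TOX itself was below scramble on all 4 shTOX arrays. Its log2 level in CCRF-CEM was 11.03 with scramble, 10.65 with shTOX-1 and 9.86 with shTOX-2. The HPB-ALL values were 10.59, 10.16 and 8.75 in the same order. The shTOX arrays did not overlap the scramble array of their line, and shTOX-2 lay below shTOX-1 in both lines. The hairpin shTOX-1 left 77.0% of the scramble signal in CCRF-CEM and 74.2% in HPB-ALL; shTOX-2 left 44.6% and 28%. The mean difference was -0.95 ± 0.36 on the log2 scale (± is the standard error from limma throughout), which leaves 51.7%. It had a Benjamini-Hochberg adjusted p of 0.927 in limma and rank 233 by p among the 8930 genes. The exact two-sided permutation test, which moved the scramble label within each line, gave p = 0.222; its 9 assignments can go no lower than 0.111. Of the relatives, TOX4 differed by 0.10 ± 0.13 and TOX2 by -0.06 ± 0.19, and TOX3, at 4.90 to 5.10, was below the filter level.

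The comparison of all 4 shTOX arrays with both scramble arrays, with line as a term, asked which genes go with lowered TOX whatever the line. No gene passed at an adjusted p under 0.05: 0 of 8930 (0%), with 0.837 as the smallest adjusted p. At an unadjusted p under 0.05 there were 470 genes (5.26%), beside 446 that chance alone gives; 215 of them were higher (2.41%) and 255 lower (2.86%). Without the CCRF-CEM scramble array this count was 762. Both shTOX arrays lay above scramble in both lines for 1064 genes (11.9%) and below it in both for 858 (9.61%). The median difference over all tested genes was 0.017, 46% of genes were lower, and 13 genes differed by at least 1. A gene of median spread has a 95% interval of 0.345 to either side of its difference, so the interval of a smaller difference includes 0. To pass over all genes a difference must be larger still. That of FAT1, -0.87 ± 0.15, had an adjusted p of 0.837 in limma. Below, levels are log2 intensities in the order scramble, shTOX-1, shTOX-2, and differences are shTOX minus scramble on the log2 scale.

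Across the 8930 genes, the shTOX differences in CCRF-CEM and HPB-ALL, which share no array, correlated at r = -0.052, and 46.9% had the same sign. Their size was alike in both lines, with a standard deviation over genes of 0.288 in CCRF-CEM and 0.296 in HPB-ALL. Past a size of 1 there were 78 genes in CCRF-CEM and 53 in HPB-ALL; 1 gene, CCR8, was past it in both lines in the same direction and 0 were in opposite directions. The difference between the hairpins, shTOX-2 minus shTOX-1, correlated at r = 0.226 between the lines, with 58.9% of genes of the same sign. These are correlations across genes, which are not independent replicates, and each rests on 1 array per construct and line.

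**Figure D1:**
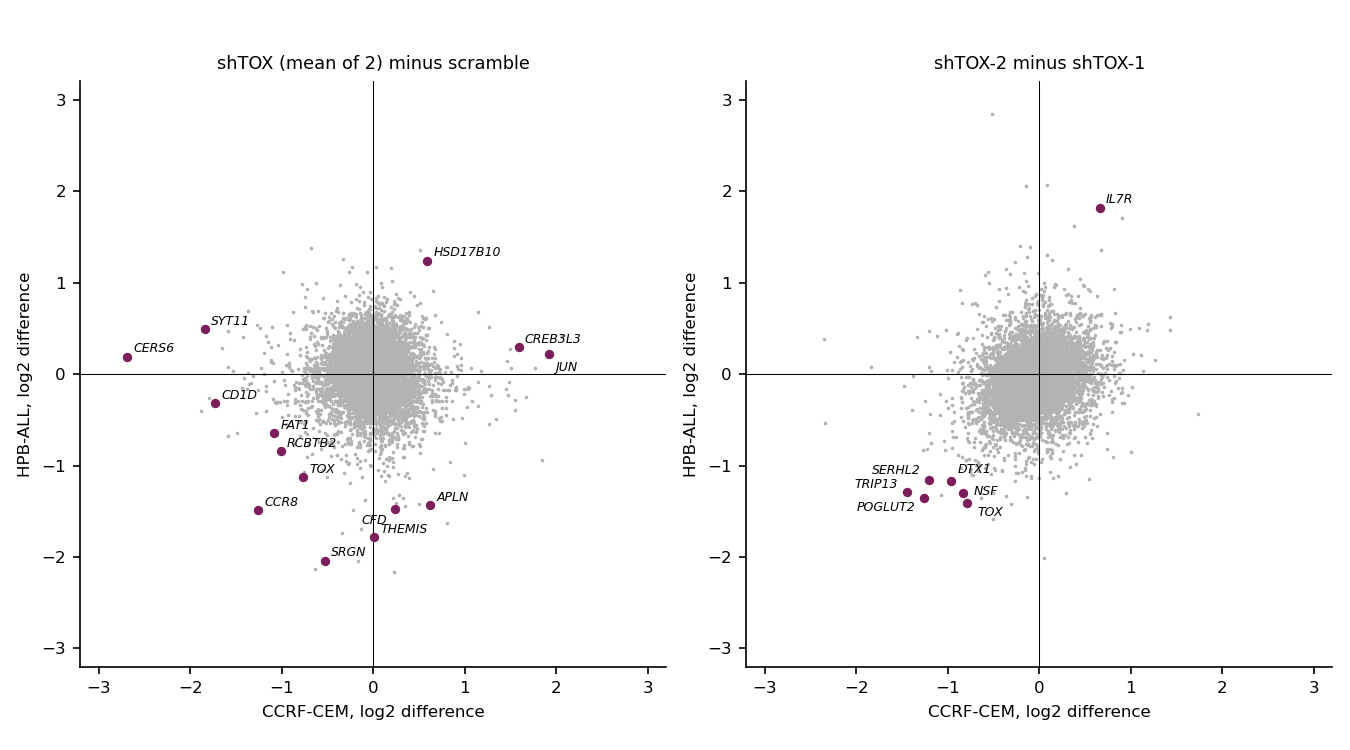
Log2 differences of the 8930 tested genes in CCRF-CEM (horizontal) and HPB-ALL (vertical); left, the mean of both shTOX arrays minus scramble, right, shTOX-2 minus shTOX-1. Each grey point is 1 gene and labelled points are genes named in the text. The left cloud shows no slant (r = -0.052), while TOX and CCR8 lie low in both lines and CERS6 and THEMIS each in 1 line; the right cloud slants slightly upward (r = 0.226).

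Genes with lower signal on every shTOX array included surface molecules and regulators of lymphoid cells. FAT1, an atypical cadherin, was at 9.01, 7.96 and 7.89 in CCRF-CEM and at 6.60, 6.04 and 5.85 in HPB-ALL, a difference of -0.87 ± 0.15 (1.83-fold lower, 95% interval -1.21 to -0.53). DENND3, an exchange factor for a RAB protein, was at 7.15, 6.39 and 6.47 in CCRF-CEM and at 7.67, 6.89 and 6.62 in HPB-ALL (-0.82 ± 0.14). In both genes all 4 shTOX arrays stood at least 0.5 below scramble, and the hairpins differed little beside that step.

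CCR8, a chemokine receptor of T cell subsets, had the largest mean difference among the genes named here that lay on the same side in both lines, -1.37 ± 0.37 (2.59-fold lower). Its levels were 6.13, 5.12 and 4.63 in CCRF-CEM against 6.84, 6.15 and 4.56 in HPB-ALL. Like TOX, it was lower with shTOX-2 than with shTOX-1 in both lines; 3 of its 4 shTOX values lay below the filter level. RCBTB2, a protein with RCC1 repeats and a BTB domain, showed the same order well above that level, at 8.68, 8.05 and 7.28 in CCRF-CEM against 8.49, 7.93 and 7.37 in HPB-ALL (-0.93 ± 0.23). The spacing of its 3 levels was nearly alike in both lines.

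GPR84, a receptor for medium-chain fatty acids, was at 6.55, 4.97 and 5.15 in CCRF-CEM and at 5.68, 5.20 and 4.87 in HPB-ALL (-1.07 ± 0.20). All its shTOX values lay near or below the filter level, and its scramble values above it. CTSW, cathepsin W, a protease of cytotoxic lymphocytes, read 9.43, 8.69 and 9.03 in CCRF-CEM against 7.21, 6.44 and 6.33 in HPB-ALL (-0.69 ± 0.15). SRGN, serglycin, the proteoglycan core of secretory granules, was lower mainly in HPB-ALL, with 7.76, 6.28 and 5.17 there and 8.65, 8.19 and 8.04 in CCRF-CEM (-1.28 ± 0.36). The reverse held for TNIK, a kinase of the WNT pathway, at 6.39, 4.36 and 4.83 in CCRF-CEM and at 9.19, 9.03 and 8.82 in HPB-ALL (-1.03 ± 0.31).

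The other genes of this kind were LZTFL1, a regulator of ciliary protein transport, at -0.81 ± 0.20, the zinc finger genes ZNF704 (-0.86 ± 0.19) and ZNF655 (-0.58 ± 0.15), and ARHGAP33, a GTPase-activating protein (-0.55 ± 0.14). CHST12, a chondroitin sulfotransferase, was at 8.37, 7.70 and 7.05 in CCRF-CEM and at 9.33, 9.22 and 8.49 in HPB-ALL, again with the step at shTOX-2 the larger. Adjusted p lay between 0.837 and 0.927 for the lower genes from FAT1 to CHST12, so none passed in limma over all genes.

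Genes with higher signal on every shTOX array included enzymes, receptors and transcription factors. FJX1, the homologue of a Drosophila planar polarity kinase, was at 4.62, 5.20 and 5.33 in CCRF-CEM and at 5.60, 6.42 and 6.61 in HPB-ALL, a difference of 0.78 ± 0.14 (1.72-fold higher); with scramble in CCRF-CEM it was under the filter level. HSD17B10, a mitochondrial dehydrogenase that is also a subunit of mitochondrial RNase P, was at 8.48, 9.27 and 8.87 in CCRF-CEM and at 7.52, 8.76 and 8.76 in HPB-ALL (0.92 ± 0.19). MREG, melanoregulin, a protein of lysosome-related organelles, was at 6.67, 7.30 and 7.10 and at 6.23, 6.98 and 6.76 (0.58 ± 0.14). For HSD17B10 in CCRF-CEM and for MREG in both lines shTOX-1, which left more TOX, lay farther from scramble than shTOX-2.

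CREB3L3, a membrane-bound transcription factor of the stress-responsive CREB3 family, differed by 0.94 ± 0.27, but unevenly, with 7.36, 9.21 and 8.68 in CCRF-CEM against 8.54, 8.79 and 8.88 in HPB-ALL. TFE3, a transcription factor of lysosomal genes, was at 6.93, 7.48 and 7.55 in CCRF-CEM and at 7.49, 7.83 and 8.01 in HPB-ALL (0.50 ± 0.14). NOTCH3, a NOTCH receptor, was at 6.63, 7.04 and 7.45 in CCRF-CEM and near the filter level in HPB-ALL, at 5.10, 5.69 and 5.51 (0.56 ± 0.16). Smaller differences were found for the long noncoding RNA CYTOR (0.53 ± 0.14), the kinesin KIF1C (0.59 ± 0.16), the mitochondrial ribosomal protein MRPL44 (0.52 ± 0.15), and TTC1 (0.52 ± 0.14), LRRC38 (0.51 ± 0.14) and KIAA0825 (0.65 ± 0.19). MILR1, an immunoglobulin-like receptor of mast cells (0.66 ± 0.21), and the small Cajal body RNA SCARNA9 (0.68 ± 0.27) were also among the largest. None of these passed either, with adjusted p from 0.837 to 0.927.

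**Figure D2:**
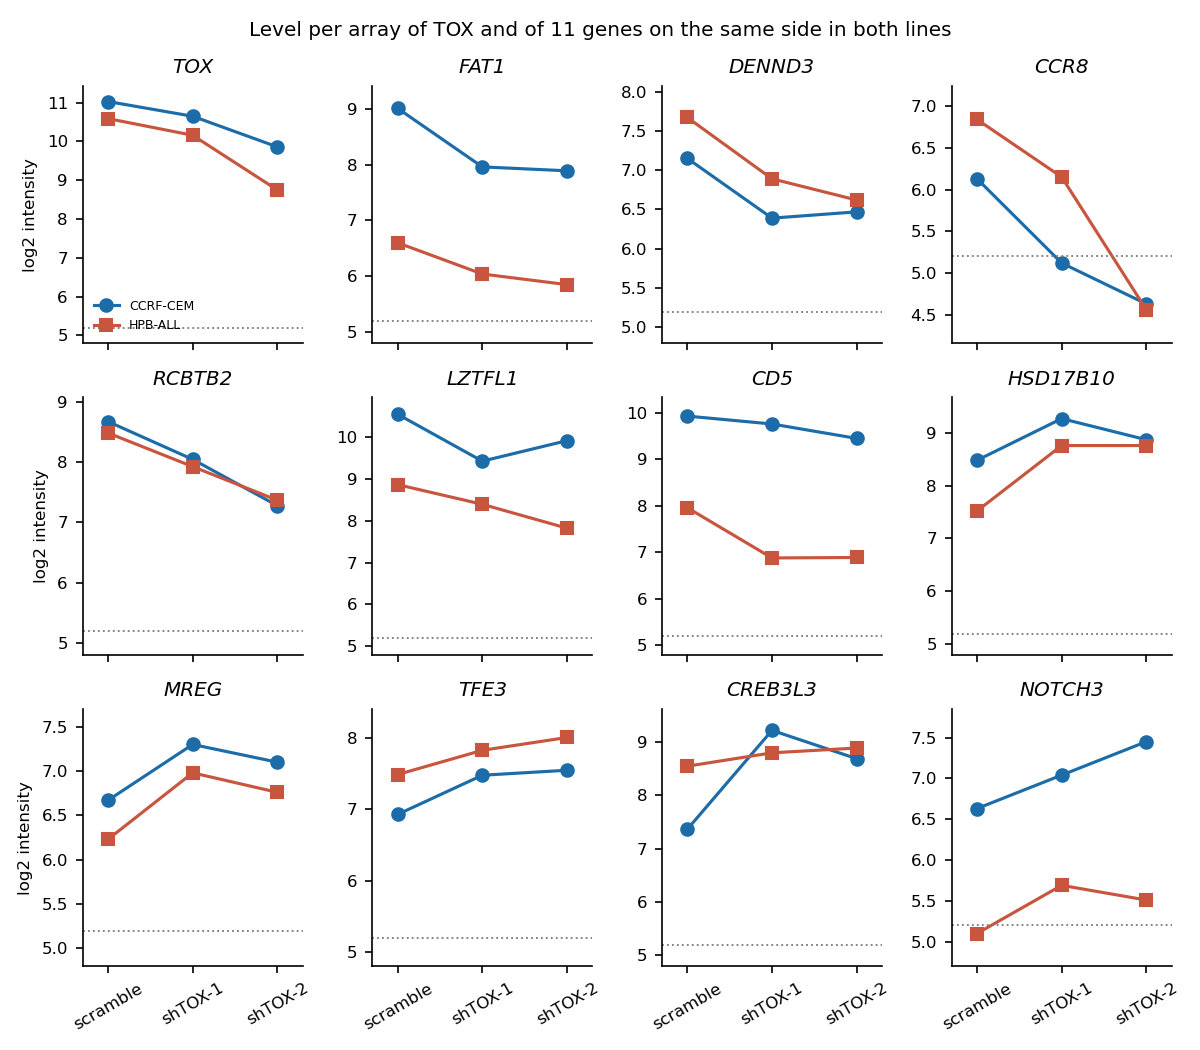
Log2 intensity of TOX and of 11 genes that lay on the same side of scramble in both lines, per array (scramble, shTOX-1, shTOX-2); blue circles are CCRF-CEM, red squares HPB-ALL, each point 1 array, and the dotted line is the filter level of 5.2. TOX, CCR8 and RCBTB2 are in the order scramble, shTOX-1, shTOX-2 from high to low in both lines, FAT1 and DENND3 are about equally low with both hairpins, and HSD17B10 and MREG are as high with shTOX-1 as with shTOX-2 or higher.

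A stepwise order of scramble, shTOX-1 and shTOX-2, which is the order of the TOX level, was found in both lines for 211 genes upward (2.36%) and 293 downward (3.28%). Any given order of 3 arrays in both lines also arises at random at a share of about this size. The order alone therefore does not mark a gene as one that follows TOX. Among the genes that the rule for named genes admits, TOX itself aside, the largest downward differences of shTOX-2 were those of CCR8, SRGN, RCBTB2, CD1D and CHST12. Upward they were those of HMOX1, FJX1, RASSF3, MKKS and IQCN. HMOX1, heme oxygenase, was at 6.04, 6.57 and 7.55 in HPB-ALL and close to the filter level in CCRF-CEM, at 5.19, 5.30 and 5.47. RASSF3, a RAS-association domain protein, was at 8.22, 8.77 and 8.86 in CCRF-CEM and at 8.55, 8.73 and 9.24 in HPB-ALL, and MKKS, a chaperonin-like protein, at 8.78, 9.10 and 9.21 and at 8.94, 9.27 and 9.78. The ordered genes thus include members well above the filter level in both lines as well as dim ones.

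A stricter view, set after the values were seen, took genes in which each of the 4 shTOX arrays stood at least 0.5 from the scramble array of its line. There were 12 such genes, 2 higher (FJX1 and RAPGEF5) and 10 lower (CCR8, CEP192P1, DENND3, ECHDC2, FAT1, LEF1-AS1, MIR32, MYLIP, RCBTB2 and SREBF1). RAPGEF5, an exchange factor for RAP proteins, was at 6.80, 8.14 and 7.74 in CCRF-CEM and below the filter level in HPB-ALL, at 3.98, 4.78 and 4.53. ECHDC2, a mitochondrial protein with an enoyl-CoA hydratase domain, was at 6.70, 5.60 and 6.19 in CCRF-CEM and likewise dim in HPB-ALL, at 4.75, 3.98 and 4.15. SREBF1, the transcription factor SREBP1 of lipid synthesis, was at 7.54, 6.97 and 6.99 in CCRF-CEM and at 7.63, 6.88 and 6.29 in HPB-ALL (-0.80 ± 0.19).

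The probe set named MIR32, a microRNA gene, was at 7.23, 5.22 and 6.05 in CCRF-CEM and at 6.12, 5.49 and 5.39 in HPB-ALL (-1.14 ± 0.26). The arrays were labelled from total RNA by a protocol for whole transcripts, so the value cannot be read as the level of the mature microRNA. The mature sequences of this gene, on chromosome 9 (GRCh38.p14, minus strand, hairpin at 109046229 to 109046298), are shown as RefSeq gives them, with the seed (bases 2 to 8) in capitals, since the seed sets which transcripts a microRNA pairs with:
hsa-miR-32-5p: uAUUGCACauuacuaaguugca
hsa-miR-32-3p: cAAUUUAGugugugugauauuu
The arms have different seeds, and no target list of either was tested here.

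Genes of T cell identity were mostly on the lower side with shTOX in HPB-ALL. In CCRF-CEM the TCR and thymocyte stage lists had a share of lower genes close to that of all genes. The counts of the lists that follow stand beside these shares of all tested genes: 46% were lower and 54% higher, 2.86% were lower and 2.41% higher at an unadjusted p under 0.05, and 9.61% lay below and 11.9% above scramble on both arrays in both lines. Within CCRF-CEM 49.6% of all genes were lower and within HPB-ALL 46.2%. Without the scramble array of a line, a pooled value becomes that of the other line. Counts or medians of both lines are therefore given for lists whose lines point to opposite sides. For the TCR complex and its proximal signalling, 15 of 21 tested genes were lower, with a median difference of -0.150 beside 0.017 over all genes; 5 had an unadjusted p under 0.05, all lower, and 5 lay below scramble on both shTOX arrays in both lines. In CCRF-CEM 11 of the 21 were lower (median -0.026) and in HPB-ALL 15 (median -0.337). None passed over all genes (adjusted p from 0.927). CD5, an inhibitory co-receptor of the TCR, was at 9.93, 9.76 and 9.45 in CCRF-CEM and at 7.96, 6.88 and 6.89 in HPB-ALL (-0.70 ± 0.19). CD7, an early T cell surface glycoprotein, was at 9.77, 9.55 and 9.46 and at 9.46, 8.77 and 8.21 (-0.62 ± 0.21). Both genes were lower on all 4 shTOX arrays, with the larger step in HPB-ALL.

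THEMIS, a regulator of thymocyte selection that acts at the TCR, was at 8.21, 6.30 and 6.55 in HPB-ALL and at 8.31, 8.21 and 8.44 in CCRF-CEM. Its mean difference of -0.88 ± 0.33 thus came from HPB-ALL, with -1.78 ± 0.20 there and 0.01 ± 0.20 in CCRF-CEM. The kinase LCK was at 7.80, 7.24 and 7.11 in HPB-ALL and at 9.93, 9.92 and 9.74 in CCRF-CEM. Its mean difference of -0.37 ± 0.16 came mostly from HPB-ALL, with -0.63 ± 0.18 there and -0.10 ± 0.18 in CCRF-CEM. The adaptor LCP2 (SLP-76) differed by -0.36 ± 0.16. CD8B differed by -0.29 ± 0.15, close to the filter level. Averaged, the 7 measured T cell markers read 8.86, 9.05 and 8.76 in CCRF-CEM against 7.40, 6.95 and 6.80 in HPB-ALL. In whole-culture RNA, fewer cells that express these genes and less RNA of them per cell cannot be told apart.

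Among the markers of thymocyte stages, 11 of 17 tested genes were lower (median -0.469); 7 had an unadjusted p under 0.05, all lower (2.86% of all genes), and 7 lay below scramble on both arrays in both lines (9.61% of all genes). In CCRF-CEM 9 of the 17 were lower and 8 higher, with a median of -0.128, and in HPB-ALL 13 were lower, with a median of -0.336. With the shTOX-2 array of CCRF-CEM left out the pooled median came to -0.210, and with no filter on low values to -0.227. CD1D and CD1E, which belong to the CD1 family of lipid-presenting molecules of cortical thymocytes, were lower mostly in CCRF-CEM: CD1D was at 8.49, 7.04 and 6.48 there and CD1E at 9.25, 7.93 and 6.81. In HPB-ALL, CD1D was near the filter level, at 5.78, 5.56 and 5.37, and CD1E below it, at 4.27, 3.66 and 4.07. CD38, an ectoenzyme of immature and activated lymphocytes, was the opposite case, at 9.06, 7.69 and 7.05 in HPB-ALL and at 11.06, 10.95 and 10.91 in CCRF-CEM. The mean differences were -1.02 ± 0.29 for CD1D, -1.14 ± 0.37 for CD1E and -0.91 ± 0.32 for CD38.

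KLF2, a transcription factor of thymocyte exit and quiescence, was lower in both lines, at 8.49, 7.74 and 7.35 in CCRF-CEM and at 7.09, 6.79 and 6.71 in HPB-ALL (-0.64 ± 0.18). S1PR1, the receptor for sphingosine 1-phosphate that guides this exit and a known KLF2 target, was at 9.42, 9.33 and 8.67 in CCRF-CEM and at 6.07, 5.63 and 5.39 in HPB-ALL (-0.49 ± 0.19); it was picked for its tie to KLF2 after its values were seen. Not all stage genes were lower: PTCRA, the invariant pre-TCR chain, was at 7.84, 9.07 and 8.64 in CCRF-CEM and at 6.90, 6.62 and 6.46 in HPB-ALL. RAG2, a subunit of the V(D)J recombinase, differed by 0.16 ± 0.14.

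Of the T lineage transcription factors, 15 of 18 were lower (median -0.132), 3 with an unadjusted p under 0.05 (2.86% of all genes) and 5 below scramble on both arrays in both lines (9.61% of all genes). In CCRF-CEM 11 of the 18 were lower (median -0.096) and in HPB-ALL 15 (median -0.233). LEF1, a WNT-responsive factor of early T cells, was at 10.78, 10.51 and 10.35 in CCRF-CEM and at 9.76, 9.51 and 9.08 in HPB-ALL (-0.41 ± 0.16). The antisense transcript LEF1-AS1 was lower as well, at 7.16, 6.64 and 6.49 and at 6.44, 5.85 and 5.54 (-0.67 ± 0.15), in the same order of arrays. GATA3, which specifies T cells, was at 8.94, 8.70 and 8.56 and at 9.11, 8.89 and 8.64 (-0.33 ± 0.14). These steps were small but had the same direction on all 4 shTOX arrays.

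The factors IKZF2 (Helios), RUNX3 and SATB1 differed by -0.65 ± 0.24, -0.41 ± 0.20 and -0.30 ± 0.15. Of these, IKZF2 and RUNX3 each had 1 shTOX array slightly above scramble, at 9.38 against 9.36 for IKZF2 in HPB-ALL and at 5.43 against 5.32 for RUNX3 in CCRF-CEM. ETS2, an ETS-family factor, went the other way, at 0.31 ± 0.16. BCL11B, a factor that fixes T cell commitment, differed by -0.19 ± 0.13, within the spread of the arrays.

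Chemokine receptors, adhesion molecules and regulators of migration were mostly on the lower side in both lines. Of 21 tested, 18 were lower (median -0.232), 15 in CCRF-CEM (median -0.249) and 17 in HPB-ALL (median -0.232). At the level of single genes, 6 of the 21 were lower with an unadjusted p under 0.05 and 1 was higher, beside 2.86% and 2.41% of all genes. On both arrays in both lines 11 lay below scramble and 2 above, beside 9.61% and 11.9% of all genes. Besides FAT1 and CCR8, the lower genes included CCR7, which guides T cells to lymph nodes. It was at 9.92, 8.92 and 9.33 in CCRF-CEM and at 10.90, 10.75 and 10.01 in HPB-ALL (-0.65 ± 0.22). CCR9, which guides cells to thymus and gut, was at 6.64, 6.52 and 6.17 and at 6.20, 5.14 and 5.48 (-0.59 ± 0.19). CCR7 and CCR9 are also on the list of thymocyte stages and are counted in both lists. RHOH, which takes part in TCR signalling, was at 9.06, 8.24 and 8.26 and at 8.42, 8.25 and 7.92 (-0.57 ± 0.16).

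An exception was GPC3, a membrane heparan sulfate proteoglycan, which was higher in CCRF-CEM, at 8.09, 9.32 and 9.37, and below the filter level in HPB-ALL, at 4.23, 4.89 and 4.60 (0.88 ± 0.19). CXCR4, a chemokine receptor abundant in T-ALL, was at 11.14, 11.09 and 11.05 and at 10.89, 10.79 and 10.75, a difference of -0.09 ± 0.13 with a 95% interval that includes 0. The adjusted p of these members was 0.837 for FAT1 and 0.927 for the others named from the list rule.

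**Figure D3:**
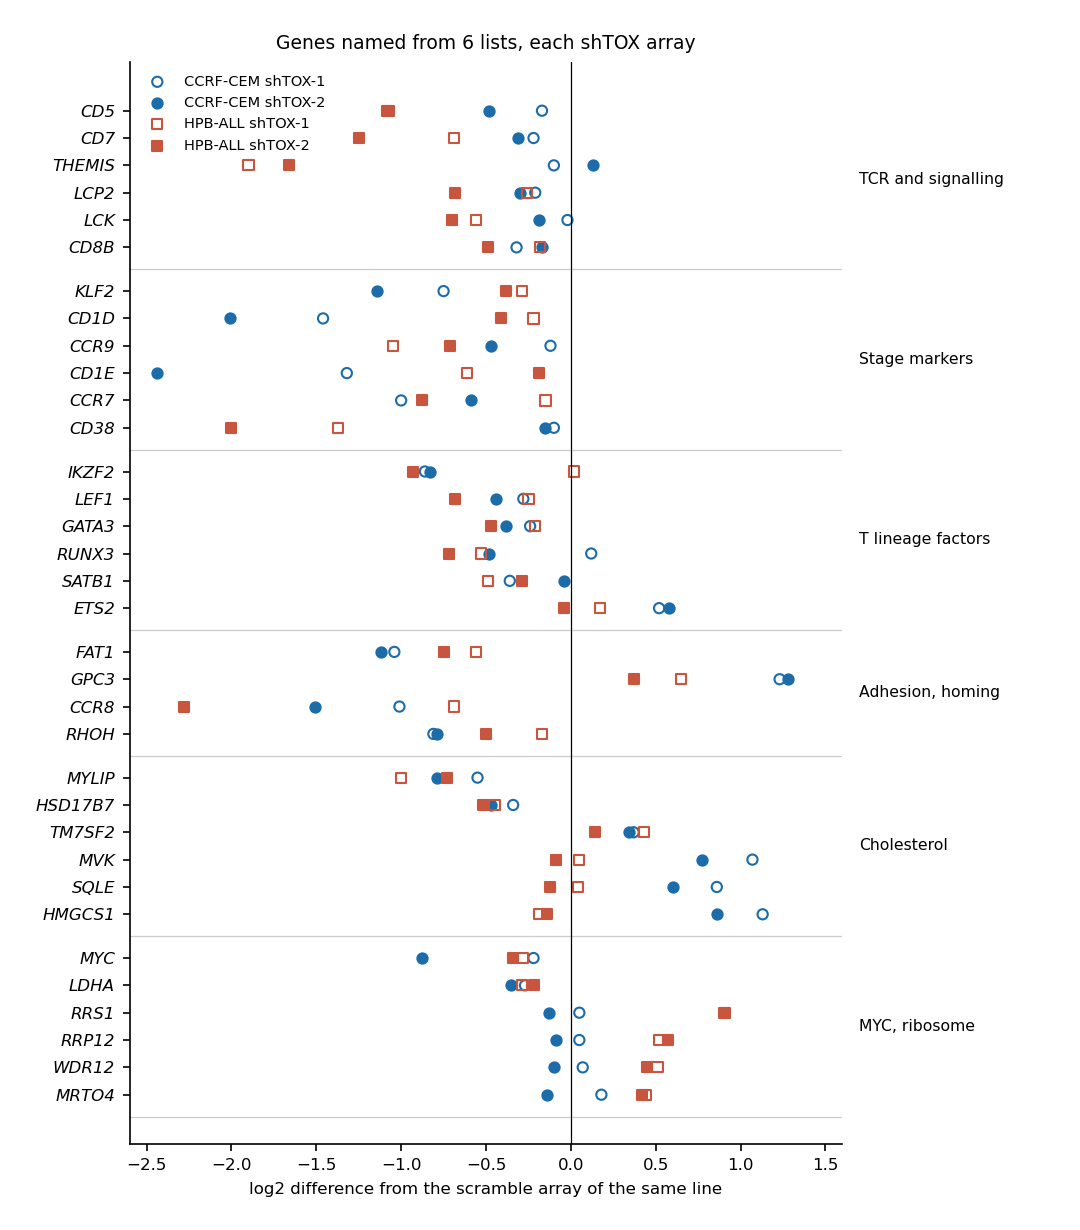
Log2 difference of each shTOX array from the scramble array of the same line, for genes named from 6 lists; open symbols are shTOX-1, filled symbols shTOX-2, blue circles CCRF-CEM and red squares HPB-ALL. CD5, CD7, KLF2, LEF1, GATA3 and FAT1 lie left of 0 on all 4 arrays, whereas MVK, SQLE and HMGCS1 lie right of 0 in CCRF-CEM and near 0 in HPB-ALL.

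Markers of other cells were measured beside these lists. The mean of 6 myeloid markers was 4.50, 4.71 and 4.70 in CCRF-CEM against 5.39, 4.89 and 5.49 in HPB-ALL, with MPO, myeloperoxidase, at 7.03, 5.10 and 7.94 in HPB-ALL. That of 6 B cell markers was 5.18, 5.62 and 5.32 and 5.52, 5.10 and 5.36, and that of 4 natural killer cell markers 5.58, 5.38 and 5.60 and 5.74, 5.51 and 5.89. The mean of 3 erythroid and megakaryocyte markers was 5.70, 5.82 and 5.85 and 5.67, 5.56 and 5.47, and that of 6 fibroblast and epithelial markers 4.96, 4.82 and 4.99 and 4.80, 4.73 and 4.77. In none of these 5 sets did the mean lie on the same side of scramble on all 4 shTOX arrays, and their part in the lower T cell genes was not tested. Of the 6 myeloid markers, 1 (CD68) was above the filter level on all arrays, of the 6 B cell markers 2, and of the 4 natural killer markers 1.

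The NOTCH pathway showed no common direction: 9 of 21 tested genes were higher and 12 lower (median -0.033), and 3 lay on each side in both lines. NOTCH3 was higher and LZTFL1 lower, as given above. MYC, a direct NOTCH target in T-ALL, was at 9.82, 9.60 and 8.94 in CCRF-CEM and at 10.00, 9.72 and 9.66 in HPB-ALL (-0.43 ± 0.19), lower on all 4 shTOX arrays. The T-ALL oncogenic transcription factors were split too, with 7 of 13 higher (median 0.014). In CCRF-CEM 9 of the 13 were higher (median 0.138) and in HPB-ALL 8 were lower (median -0.131). TAL1 differed by 0.25 ± 0.15 and MYB by -0.12 ± 0.13; HHEX was at 7.32, 8.13 and 7.93 in CCRF-CEM and at 7.03, 6.81 and 6.94 in HPB-ALL.

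Genes of glycolysis and hypoxia were lower in 12 of 13 cases (median -0.240), mainly in HPB-ALL, where the list median was -0.454 against -0.022 in CCRF-CEM. HK2, a hexokinase of proliferating cells, was lower in both lines, at 7.98, 7.44 and 7.25 in CCRF-CEM and at 8.94, 8.46 and 8.43 in HPB-ALL (-0.57 ± 0.13). HK1, PGK1 and BNIP3L were lower in HPB-ALL alone: PGK1, for example, was at 10.24, 9.86 and 9.67 there and at 9.84, 9.85 and 9.82 in CCRF-CEM. Over the list, 3 genes lay below scramble on both arrays in both lines and 1 had an unadjusted p under 0.05.

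Cholesterol synthesis and uptake gave opposite directions in the lines. In CCRF-CEM 16 of 18 genes were higher (median 0.400), all 16 with both shTOX arrays above scramble, beside 34.4% of all genes above and 33.7% below. In HPB-ALL 17 of 18 were lower (median -0.166), 13 of them with both arrays below scramble, beside 31.6% of all genes below and 39.9% above. HMGCS1, which makes the substrate of the rate-limiting enzyme HMG-CoA reductase, was at 8.15, 9.28 and 9.0 in CCRF-CEM and at 9.08, 8.89 and 8.93 in HPB-ALL. Its difference came to 0.99 ± 0.19 in the former and -0.16 ± 0.19 in the latter, and the difference between lines of -1.16 ± 0.27 had an adjusted p of 0.473 in limma.

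MVK, mevalonate kinase, was at 6.61, 7.67 and 7.37 in CCRF-CEM and at 7.65, 7.70 and 7.56 in HPB-ALL. SQLE, squalene epoxidase, was at 8.83, 9.68 and 9.42 and at 9.09, 9.13 and 8.97. In each of these enzymes, the CCRF-CEM scramble array was the lowest of the 6 arrays. The list also held 2 genes that were lower in both lines. MYLIP, a ubiquitin ligase that marks the LDL receptor for degradation, was at 6.36, 5.81 and 5.57 in CCRF-CEM and at 8.33, 7.32 and 7.60 in HPB-ALL (-0.77 ± 0.15). HSD17B7, a sterol reductase, was at 6.96, 6.62 and 6.49 and at 7.83, 7.38 and 7.30 (-0.44 ± 0.13).

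The MYC targets and ribosome production list was opposite as well, the other way round. In CCRF-CEM 16 of 18 genes were lower (median -0.164) and in HPB-ALL 15 of 18 higher (median 0.229), so that the pooled median, 0.044, hid both. Both shTOX arrays lay below scramble for 11 genes in CCRF-CEM, beside 33.7% of all genes. In HPB-ALL both lay above it for 15, beside 39.9% of all genes. The side of CCRF-CEM was the weaker with shTOX-1, where the list median was -0.054. RRS1, a ribosome assembly factor, was at 9.30, 10.21 and 10.20 in HPB-ALL and at 9.50, 9.56 and 9.37 in CCRF-CEM. RRP12 and WDR12, which act in ribosome assembly too, differed by 0.55 ± 0.18 and 0.48 ± 0.18 in HPB-ALL and by -0.02 ± 0.18 each in CCRF-CEM. MYC itself was lower in both lines, as given above.

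**Figure D4:**
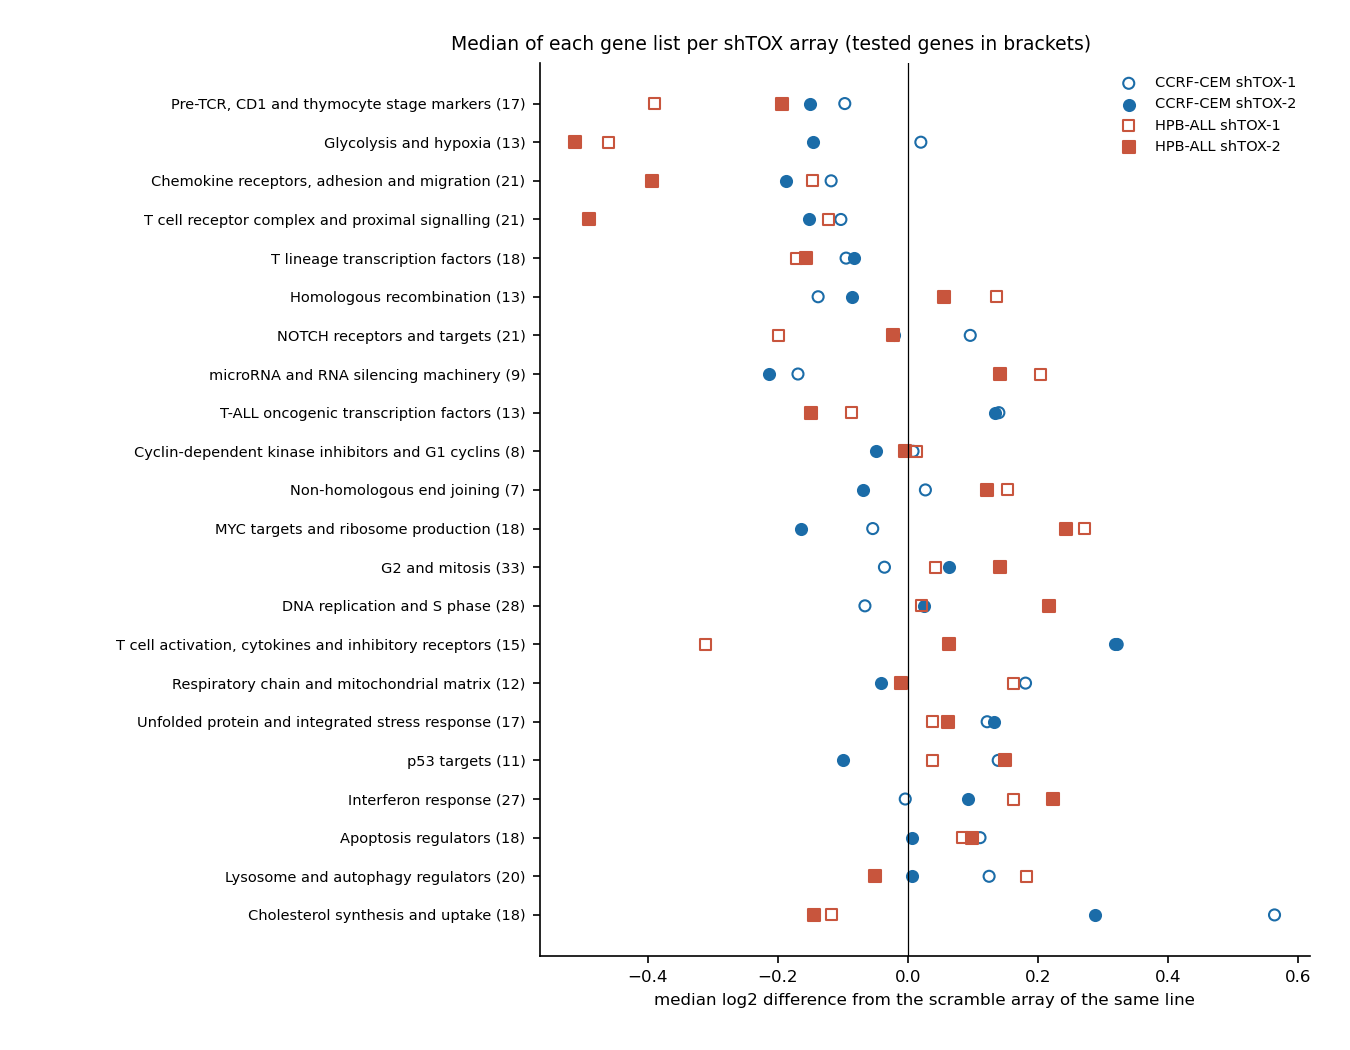
Median log2 difference from the scramble array of the same line for each of 22 gene lists, 1 symbol per shTOX array (open, shTOX-1; filled, shTOX-2; blue circles, CCRF-CEM; red squares, HPB-ALL), with the number of tested genes in brackets. The lists of T cell identity and of adhesion lie left of 0 on all 4 arrays; cholesterol synthesis and MYC targets show the lines on opposite sides of 0.

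Genes of stress responses were higher in part. Of 17 tested genes of the unfolded protein and integrated stress responses, 13 were higher (median 0.069), 3 with an unadjusted p under 0.05 (2.41% of all genes), and 6 lay above scramble on both arrays in both lines (11.9% of all genes). In CCRF-CEM 14 of the 17 were higher (median 0.099), and in HPB-ALL 10 were higher and 7 lower (median 0.014). Besides CREB3L3, these were ERN1, which encodes the endoplasmic reticulum stress sensor IRE1, at 6.54, 7.13 and 7.16 in CCRF-CEM and at 6.78, 7.16 and 7.0 in HPB-ALL (0.45 ± 0.14), and DDIT3, which encodes CHOP, at 5.61, 5.90 and 5.91 and at 6.31, 6.74 and 6.67 (0.34 ± 0.13). Their shTOX arrays did not overlap scramble in either line. PMAIP1, which encodes the BH3-only protein NOXA and is also a p53 target, was at 9.11, 9.76 and 9.40 and at 10.91, 11.38 and 11.23 (0.43 ± 0.15).

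Interferon-induced genes were higher in 17 of 27 cases (median 0.099), 4 with an unadjusted p under 0.05, all higher, and 7 lay above scramble on both arrays in both lines, beside 11.9% of all genes. In CCRF-CEM 15 of the 27 were higher (median 0.046) and in HPB-ALL 17 (median 0.274). IFIH1, a cytoplasmic sensor of double-stranded RNA, was at 5.62, 5.93 and 6.05 in CCRF-CEM and at 5.71, 6.20 and 6.01 in HPB-ALL (0.38 ± 0.13). RSAD2 (viperin) was at 6.43, 6.47 and 6.85 and at 8.34, 9.06 and 9.05 (0.47 ± 0.17), and HERC5, the ligase of ISG15, at 8.78, 9.19 and 9.18 and at 7.52, 7.71 and 8.30 (0.45 ± 0.18). IFIT3 was below the filter level in CCRF-CEM and at 8.19, 8.78 and 9.17 in HPB-ALL.

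In the apoptosis list, 13 of 18 genes were higher (median 0.103), with 9 of 18 in CCRF-CEM (median -0.004) and 13 in HPB-ALL (median 0.094). BCL2, which protects from apoptosis, was at 8.07, 8.33 and 8.18 in CCRF-CEM and at 9.15, 9.59 and 9.69 in HPB-ALL (0.34 ± 0.14); BCL2L1 (BCL-XL), also protective, differed by 0.34 ± 0.15 and the BH3-only BCL2L11 (BIM) by -0.24 ± 0.14. Of the p53 targets, 8 of 11 were higher (median 0.089), with PMAIP1 the one with an unadjusted p under 0.05.

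Cell cycle genes showed small differences. Of 28 genes of DNA replication, 19 were higher (median 0.047), although in CCRF-CEM 17 were lower (median -0.067) and in HPB-ALL 19 higher (median 0.127). The higher genes included GINS3, a subunit of the replicative helicase complex, at 9.37, 9.52 and 9.75 in CCRF-CEM and at 9.05, 9.60 and 9.73 in HPB-ALL (0.44 ± 0.15). CCNE1, cyclin E1, was at 8.36, 9.27 and 8.54 and at 7.31, 7.55 and 8.30 (0.58 ± 0.25), so a different hairpin was the highest in each line. Of 33 genes of G2 and mitosis, 19 were higher (median 0.046), 8 of them above scramble on both arrays in both lines, and 0 had an unadjusted p under 0.05 in limma. KIF4A and KIF11, mitotic kinesins, differed by 0.28 ± 0.13 and 0.24 ± 0.14. Among 8 cyclin-dependent kinase inhibitors, G1 cyclins and their partners, 5 were higher, and the differences of the named ones lay between -0.15 and 0.14.

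DNA repair by end joining, a process in which the KU proteins bind broken ends, was tested because TOX has been studied in T-ALL in that connection. Of 20 listed genes 8 were measured and 7 tested, and 4 of these 7 were higher (median 0.036). In CCRF-CEM 5 of the 7 were lower (median -0.031) and in HPB-ALL 6 were higher (median 0.136). XRCC6 (KU70) was at 9.81, 9.89 and 9.76 in CCRF-CEM and at 9.75, 9.93 and 9.89 in HPB-ALL, a difference of 0.09 ± 0.13. XRCC5 (KU80) was at 11.78, 11.75 and 11.75 and at 11.66, 11.81 and 11.78 (0.05 ± 0.13). These differences of the KU genes lay within the spread of the arrays. XRCC4, also on this list, was at 8.64, 8.78 and 8.0 in CCRF-CEM and at 8.51, 8.86 and 8.13 in HPB-ALL (-0.13 ± 0.26). It lay above scramble with shTOX-1 and below it with shTOX-2 in both lines. In homologous recombination 6 of 13 were higher (median -0.043). In CCRF-CEM 10 of the 13 were lower (median -0.137) and in HPB-ALL 8 were higher (median 0.083). PALB2, a partner of BRCA2, differed by 0.24 ± 0.14 and BARD1, the partner of BRCA1, by -0.19 ± 0.13.

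The machinery that uses small RNAs was looked at because an shRNA enters it. Of 9 genes, 5 were higher (median 0.009), with 8 lower in CCRF-CEM and 7 higher in HPB-ALL. TNRC6B, a scaffold of the silencing complex, was at 8.37, 7.99 and 7.89 in CCRF-CEM and at 8.64, 8.05 and 8.24 in HPB-ALL (-0.46 ± 0.13). TARBP1, which is on the list although it encodes an RNA methyltransferase and not a silencing factor, was at 8.57, 8.04 and 7.89 and at 8.99, 8.45 and 8.60 (-0.53 ± 0.14). All 6 arrays carry a hairpin, the scramble arrays included.

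In the lysosome and autophagy list, 12 of 20 genes were higher (median 0.106). Next to TFE3, the protease CTSA differed by 0.33 ± 0.16 and the calcium channel MCOLN1 by 0.30 ± 0.15, both above scramble on all 4 shTOX arrays. In the respiratory chain list, 7 of 12 were higher (median 0.066) and HSD17B10 stood alone past an unadjusted p of 0.05. Of 50 listed activation genes 15 were tested, and 10 of these 15 were higher (median 0.055). In CCRF-CEM 11 of the 15 were higher (median 0.320) and in HPB-ALL 9 were lower (median -0.050). JUN, an AP-1 subunit, was at 7.83, 9.74 and 9.76 in CCRF-CEM, but at 9.20, 8.95 and 9.88 in HPB-ALL (1.07 ± 0.36). In HPB-ALL 1 of its shTOX arrays lay below scramble and 1 above.

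Within each line the shTOX arrays were set against the 1 scramble array, which was assumed to vary as the shTOX arrays do. In CCRF-CEM 1 gene passed (0.0112%) and in HPB-ALL 0 (0%); an unadjusted p under 0.05 was found for 581 (6.51%) and 762 genes (8.53%). CERS6, a ceramide synthase, fell by 2.69 ± 0.20 in CCRF-CEM (adjusted p = 0.0264 in limma), from 8.05 with scramble to 5.53 with shTOX-1 and 5.19 with shTOX-2. Its HPB-ALL values lay below the filter level throughout, 4.07, 4.27 and 4.24, and its mean over the 6 arrays, 5.22, stood just above that level through the CCRF-CEM scramble array. The call was lost without the CCRF-CEM shTOX-1 array (adjusted p = 0.0939), without the shTOX-2 array (0.0979), with quantile normalization (0.0679) and with the hairpin number as a block (0.0511). Without either HPB-ALL shTOX array, when the spread comes from 1 pair of arrays, 32 genes passed in CCRF-CEM.

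The difference between the lines in their shTOX difference passed for 0 genes (0%), with 792 (8.87%) at an unadjusted p under 0.05 and 0.175 as the smallest adjusted p. In 2442 genes (27.3%) the shTOX arrays lay apart from scramble in opposite directions in the lines. In CCRF-CEM, SYT11, a synaptotagmin of vesicle traffic, was at 7.24, 5.25 and 5.54, and HPGD, which degrades prostaglandins, at 7.49, 6.29 and 6.30; both lay below the filter level in HPB-ALL. MSANTD3-TMEFF1, a read-through transcript, was at 6.79, 5.49 and 5.36 in CCRF-CEM but at 5.86, 6.50 and 6.61 in HPB-ALL, and ZNF786, a zinc finger gene, at 7.55, 6.99 and 6.84 and at 6.71, 7.63 and 7.76.

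In the other direction, APLN, the peptide apelin, was at 6.13, 6.82 and 6.67 in CCRF-CEM and at 7.74, 6.19 and 6.44 in HPB-ALL. IL21R, the receptor of interleukin 21, was at 5.92, 6.71 and 6.80 and at 6.62, 5.71 and 5.61. ACY3, an aminoacylase, was at 7.02, 7.60 and 7.45 and at 9.33, 8.10 and 7.71, and CFD, complement factor D, at 6.31, 6.47 and 6.64 and at 9.19, 7.84 and 7.59. In all 4 genes both shTOX arrays of a line lay on the same side of scramble, and the lines on opposite sides. The adjusted p of the difference lay between 0.294 and 0.348 for these 4 and for THEMIS.

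The difference between the hairpins spread over genes about as widely as that between shTOX and scramble. The standard deviation over genes of shTOX-2 minus shTOX-1 was 0.228, beside 0.201 for shTOX minus scramble. The median standard error was 0.164 beside 0.153, since the hairpins are compared on fewer arrays. Noise of the arrays enters both spreads, so they do not tell which effect is larger. Between the hairpins no gene passed in limma (0 of 8930, 0%), 601 had an unadjusted p under 0.05 (6.73%), and the smallest adjusted p was 0.178. Named after the values were seen, the leading genes were lower with shTOX-2 in both lines: TRIP13, an ATPase of the spindle checkpoint, was at 9.86, 10.01 and 8.56 in CCRF-CEM and at 9.36, 9.45 and 8.16 in HPB-ALL (-1.37 ± 0.15). DTX1, a regulator of NOTCH, was at 7.71, 7.63 and 6.68 and at 7.03, 7.31 and 6.13, and NSF, an ATPase of membrane fusion, at 9.71, 9.71 and 8.88 and at 10.17, 10.26 and 8.96. For these 3 genes shTOX-1 stayed near scramble and shTOX-2 lay well below it.

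POGLUT2, an enzyme that adds glucose to EGF-like domains, was on both sides of scramble, at 7.29, 7.93 and 6.67 in CCRF-CEM and at 7.32, 8.09 and 6.73 in HPB-ALL, so that its mean shTOX difference was 0.05 ± 0.40 while the hairpins differed by -1.31 ± 0.15. SERHL2 showed the same pattern, at 5.98, 6.90 and 5.69 and at 4.38, 5.16 and 4.01. IL7R, the receptor of interleukin 7, was higher with shTOX-2 than with shTOX-1 in both lines, at 6.59, 8.10 and 8.76 in CCRF-CEM and at 7.33, 5.47 and 7.30 in HPB-ALL, so that both lay above scramble in the former and below it in the latter. These genes differ between hairpins whose TOX levels also differ. What goes with the TOX level and what with the hairpin cannot be told apart, because each hairpin comes with its own TOX level. POGLUT2 and SERHL2 were not in the order of the TOX level in either line.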

How the data were processed

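The deposited values of 53617 probe sets are log2 intensities, as judged from their range; the method of background correction, summarization and normalization is not given in the sources used here. Per the labels, the authors labelled total RNA by an Affymetrix whole-transcript protocol. In the platform annotation, 16098 probe sets carry 1 gene symbol, all matched by identifier to RefSeq, and 37519 carry none. For the 779 genes with several probe sets, the one with the highest mean was kept. Genes whose mean reached the 40th percentile (5.2) were tested in limma 3.58.1 (R 4.3.3; lmFit, then eBayes with no trend), with line as a term or, within lines, a mean per line and construct kind; a call needs a Benjamini-Hochberg adjusted p under 0.05. The fit was tested on simulated data.

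The members and the 23 gene lists and 6 marker lists were chosen with earlier results of these data known. Not every listed gene was measured: in the respiratory chain list 12 of 32 were, and of the T cell markers 7 of 11. For the main comparison, named genes had a plain symbol (not LOC, LINC, MIR, SNOR, antisense or open reading frame names), reached the filter level on the higher side in each line, and lay on the same side of scramble on all 4 shTOX arrays, TOX itself left out: 12 higher and 12 lower by smallest p, 6 and 6 by size and 5 and 5 in the order of the TOX level; 5 and 5 by smallest p for the difference between lines, with the filter level reached in at least 1 line; and up to 6 per list by smallest p, with no such conditions. Genes outside this rule are marked in the text or were named as background markers: RAG2, BCL11B, CXCR4, IL7R, S1PR1, RAPGEF5, ECHDC2, CEP192P1, LEF1-AS1, MIR32 and the hairpin genes were picked after their values were seen. Alternatives were the mean of probe sets, no filter, the 60th percentile, quantile normalization, an intensity trend, no line term, the hairpin number as a block, all 8 arrays, and leaving out each array.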

Additional observations from a re-analysis of the deposited data

Results flagged for a closer look

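In a number of named genes, both shTOX arrays lay on one side of scramble in CCRF-CEM and on the other side in HPB-ALL, as in 27.3% of all tested genes. The difference between the lines (HPB-ALL minus CCRF-CEM, log2) was tested for each gene as an interaction in limma, and none passed over all genes. Among the genes chosen by the smallest p of this difference, it was 2.88 for CERS6 (adjusted p = 0.175), 2.33 for SYT11 and 2.06 for MSANTD3-TMEFF1, followed by ZNF786 (1.62) and HPGD (1.42), all lower in CCRF-CEM. IL7R, which was picked after its values were seen, had a difference of -2.78, with a shTOX-2 array in HPB-ALL close to scramble. Lower in HPB-ALL and higher in CCRF-CEM were APLN (-2.04), ACY3 (-1.92), IL21R (-1.80) and CFD (-1.72), and, of the listed genes, PTCRA of the pre-TCR (-1.38), the sterol enzyme HMGCS1 (-1.16), the early growth response factor EGR1 (-0.90), HHEX (-0.87), TOX2 (-0.47), BMF (-0.45), CCND2 (-0.44), SESN1 (-0.30) and RBL2 (-0.13). The opposite pattern was found for the cell cycle kinase CDK6 (0.80), the repair genes RIF1 (0.65), RAD51C (0.59), NBN (0.54), TP53BP1 (0.42) and XRCC5 (0.17), and for LDB1 (0.58), BIRC2 (0.52), DDX6 (0.50) and TNRC6A (0.46).

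The same held for the medians of 6 lists, whose difference between lines was not tested: cholesterol synthesis and uptake (-0.557), the TOX family (-0.380), T-ALL oncogenic transcription factors (-0.254), homologous recombination (0.208), RNA silencing machinery (0.364) and MYC targets and ribosome production (0.366). In each, the list median lay on one side of 0 on both shTOX arrays of a line and on the other side in the other line, and each line rests on 1 scramble array. The TOX family median is that of only 3 tested genes, and for shTOX-1 in HPB-ALL it was -0.006. TOX itself was lower in both lines, with -0.77 in CCRF-CEM and -1.13 in HPB-ALL.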

How the results depend on the processing

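The number of genes called between shTOX and scramble was 0 under every alternative but 1: without the HPB-ALL scramble array it was 1, CERS6. Leaving out 1 array in turn moved the genes at an unadjusted p under 0.05 from 351 to 762, the latter without the CCRF-CEM scramble array; the count was 735 with no filter and 71 with no line term. Within CCRF-CEM the call of CERS6 ended (0 called) with the mean of probe sets and the 60th percentile filter, where it was not tested, with quantile normalization and with the replicate block; 3 genes were called with no filter (CERS6, KLHL4 and LRRTM1). There, 987 genes had an unadjusted p under 0.05 with no filter and 311 with the 60th percentile filter. Within HPB-ALL the latter count was 1218 with no filter. For the difference between lines 1 gene (LRRTM1) was called with no filter, where 1326 genes had an unadjusted p under 0.05, against 436 with the 60th percentile filter. Between hairpins 2 genes (POGLUT2 and TRIP13) were called with the 60th percentile filter, 1 (TRIP13) with an intensity trend, and 124 had an unadjusted p under 0.05 with no line term. In these comparisons, leaving out 1 array gave 0 to 32 called genes in CCRF-CEM, 0 to 15 in HPB-ALL, 0 to 12 for the difference between lines and 0 to 44 between hairpins, where an unadjusted p under 0.05 was found for 317 to 957 genes. The TOX difference lay between -1.23 and -0.63.

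The numbers 1 and 2 name hairpins and not paired cultures. With the replicate block, 0 genes were called between shTOX and scramble and 522 had an unadjusted p under 0.05; the deviations of shTOX arrays of the same number correlated at r = 0.226 across genes.

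Of 2435 values of named genes under alternatives, 38 in 35 genes had the opposite sign, all on leaving out 1 array. Their differences then ranged as follows: THEMIS -1.78 to 0.01, TOX2 -0.3 to 0.17, HHEX -0.16 to 0.71, LDB1 -0.48 to 0.1, PTCRA -0.36 to 1.02, XRCC4 -0.3 to 0.06, XRCC5 -0.03 to 0.14, TP53BP1 -0.27 to 0.15, RIF1 -0.4 to 0.25, RAD51C -0.04 to 0.54, NBN -0.14 to 0.41, SESN1 -0.26 to 0.03, AEN -0.03 to 0.29, BMF -0.04 to 0.41, BIRC2 -0.44 to 0.08, CLSPN 0 to 0.63, CCND2 -0.08 to 0.36; and CCND3 -0.3 to 0.01, CDK6 -0.29 to 0.51, CDK4 -0.06 to 0.22, RB1 -0.19 to 0.01, RBL2 -0.02 to 0.11, RRS1 -0.04 to 0.9, RRP12 -0.02 to 0.55, WDR12 -0.02 to 0.48, MVK -0.02 to 0.92, SQLE -0.04 to 0.73, HMGCS1 -0.16 to 0.99, HK1 -0.6 to 0.01, JUNB -0.45 to 0, EGR1 -0.22 to 0.68, TARBP2 -0.07 to 0.42, DDX6 -0.1 to 0.4, TNRC6A -0.34 to 0.13, IL7R -0.94 to 1.84. For THEMIS, HHEX, PTCRA, RRS1 and HMGCS1, the ends of the range are the differences within the lines. The pooled value becomes that of 1 line when the scramble array of the other is left out. Any cause beyond this was not tested. Of 322 list medians under alternatives, 16 moved by more than the spread between arrays.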
